A study of Mus musculus with 2 samples.

Results

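The clustered histone genes were taken as the protein-coding genes of the count table whose symbol in GENCODE release M21 begins with Hist1h, Hist2h, Hist3h or Hist4h. They numbered 67 among 21976 protein-coding genes and 55421 genes in all. Of the 67, 6 encode linker histone H1, and 18 encode H2A, 18 H2B, 12 H3 and 13 H4. On GRCm38, 54 Hist1 members lie on chromosome 13 in a group of 23 at chr13:21715763-22043676 and a group of 31 at chr13:23531050-23934851, 10 Hist2 members lie at chr3:96219865-96270132, 2 Hist3 members at chr11:58948920-58956830, and Hist4h4 alone at chr6:136801553-136804415. Another 3 genes with such symbols are annotated as pseudogenes and were left out; they held at most 4 counts in a library.

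Polyadenylated RNA was sequenced from 2 samples of E14 mouse embryonic stem (ES) cells of 129/Ola background carrying a knockout of Ago1, an Argonaute protein that binds microRNAs. Cells were grown on gelatin in medium with serum and leukaemia inhibitory factor (LIF). The libraries are called KO2 and KO1 after their replicate numbers. They form 1 group, no control library was used here, and nothing in the labels tells whether separate clones or cultures were used. The spread between KO2 and KO1 may therefore be technical.

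Replication-dependent histone genes supply the core and linker histones that package newly made DNA, and their mRNAs accumulate in S phase. Most of these mRNAs carry no poly(A) tail. Their end is made by a cut just after a conserved stem-loop, which the stem-loop binding protein SLBP holds and the U7 small nuclear ribonucleoprotein helps to place. Selection for poly(A) is meant to pass over RNA without a tail, so the reads here do not count histone mRNA as a whole. How many of them came from RNA without a tail was not measured.

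The stem-loop was searched for in the annotated transcripts, within 300 bases after the stop codon on the sense strand. A match had a stem of 6 base pairs (Watson-Crick, or G with T) that opens with GG and closes with CC and whose innermost pair is T with A, around a loop of TTT followed by any base. Of the 67 members, 44 held a match, against 8 of 21607 other protein-coding genes (0.0370%), among them H2afx and H2bfm, which are also histone genes. The match began 21 to 58 bases after the stop codon, with a median of 31. Of the 23 members with none, 15 had under 16 annotated bases after the stop codon and could not be searched. The other 8 had 16 or more and no match, namely Hist1h1a, Hist1h2bc, Hist1h2bq, Hist1h2br, Hist2h2be, Hist1h3g, Hist2h3b and Hist1h4a. Of these, Hist2h3b had 37 annotated bases after the stop codon and Hist1h1a 48, so a match further on would have been missed.

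The 44 matches came in 6 variants, and 1 member of each is printed to show how little the element varies and where H4 differs. Sequences are from the GENCODE M21 transcripts, 5′ to 3′ as DNA letters. The 16 bases of the stem-loop are in capitals and 5 bases on each side in lower case. Positions are those of the capitals on GRCm38.
Hist1h1c, chr13:23739512-23739527, plus strand: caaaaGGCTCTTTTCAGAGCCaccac
Hist1h2bb, chr13:23747203-23747218, plus strand: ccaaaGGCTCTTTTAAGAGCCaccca
Hist2h2ac, chr3:96220418-96220433, minus strand: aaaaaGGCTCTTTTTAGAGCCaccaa
Hist1h4d, chr13:23581950-23581965, plus strand: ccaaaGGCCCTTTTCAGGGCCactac
Hist1h4i, chr13:22040966-22040981, minus strand: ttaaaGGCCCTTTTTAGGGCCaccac
Hist1h4j, chr13:21735437-21735452, plus strand: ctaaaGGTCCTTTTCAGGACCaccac

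The form printed for Hist1h1c was carried by 26 members, 3 of H1, 10 of H2A, 8 of H2B and 5 of H3. The Hist1h2bb form was carried by 6 members of H1, H2B and H3, and the Hist2h2ac form by that gene alone. The 11 H4 matches fell into the remaining forms, 7 like Hist1h4d, 2 like Hist1h4i and 2 like Hist1h4j. No H4 member carried a form found in another type.

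Reads of the 67 genes were few. They summed to 1767 counts in KO2 and 1573 counts in KO1, of 54408708 and 57048330 counts in those libraries. These sums were 0.00325% of all counts in KO2 (95% exact Poisson interval 0.00310% to 0.00340%) and 0.00276% in KO1 (0.00262% to 0.00290%). In such bulk samples, fewer cells of a kind (cells in S phase, for example) and less RNA per cell cannot be told apart. Intervals here cover counting error only, and they take each read as independent, which PCR copies are not. A gene was called detected at 1 or more counts per 1000000 (CPM) in both libraries. By that rule 4 of the 67 were detected, Hist1h2bc, Hist1h1c, Hist1h4i and Hist3h2a, against 55.3% of all protein-coding genes. The median member had 0.152 CPM per kb of exon, against 0.695 CPM per kb for all protein-coding genes. Over both libraries together, 7 members had no count, 24 had 1 to 9, 24 had 10 to 49 and 12 had 50 or more. The 7 were Hist2h2aa1, Hist2h2ab, Hist1h2ba, Hist1h2bq, Hist2h3b, Hist2h3c1 and Hist1h4m. For reads assigned to a gene, a count of 0 allows up to 0.0549 CPM in KO2 and 0.0528 CPM in KO1 (3 counts per library). This is no limit on the expression of 6 of the 7, all but Hist1h2ba. These 6 share from 64.8% to 100% of their 50-base words with other genes, matched on either strand.

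**Figure D1:**
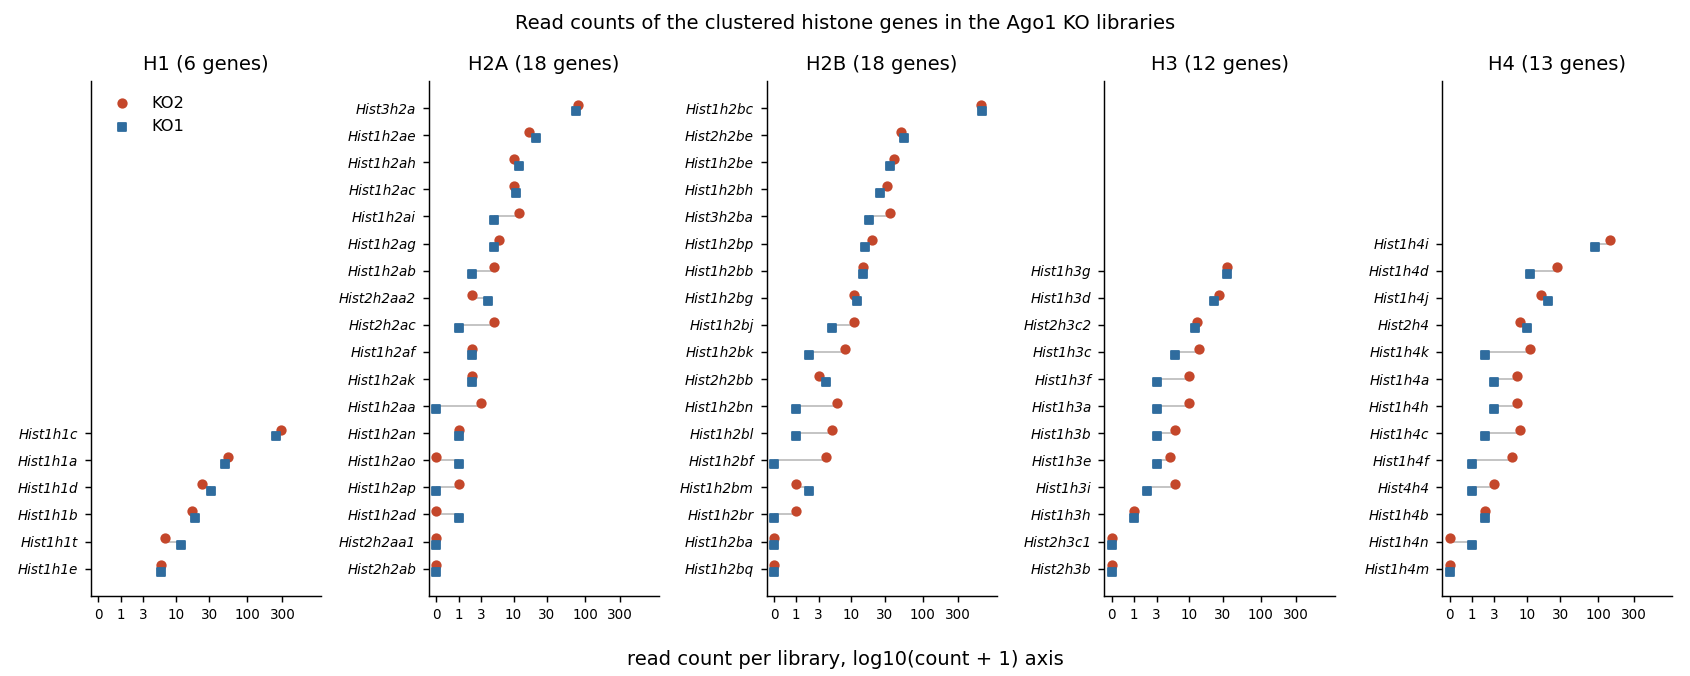
Read counts of all 67 members, 1 panel per histone type, with genes ordered by their summed count (log10 of count + 1 on the horizontal axis; circles KO2, squares KO1). Hist1h2bc stands furthest right at 612 counts in KO2 and 637 in KO1, and 12 of the 67 genes have 50 or more counts over both libraries.

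A handful of genes held most of the reads. Hist1h2bc, an H2B gene, took 34.6% of the member counts in KO2 and 40.5% in KO1. With Hist1h1c, Hist1h4i, Hist3h2a and Hist2h2be the share came to 66.2% in KO2 and 70.1% in KO1. The order of members was alike in both libraries, with a Spearman correlation of 0.912 across the 67 genes, which are not independent replicates. The median gene had 20.5 counts in KO2 and 25.5 in KO1 for H1, 2.5 in KO2 and 2 in KO1 for H2A, 9.5 in KO2 and 4.5 in KO1 for H2B, 8 in KO2 and 3 in KO1 for H3, and 7 in KO2 and 2 in KO1 for H4. Per exonic length the type medians were, in CPM per kb, 0.280 in KO2 and 0.341 in KO1 for H1, and 0.298 in KO2 and 0.162 in KO1 for H2B, so that H1 was highest in KO1 and H2B in KO2.

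Among linker histones, H1 members summed to 391 counts in KO2 and 362 in KO1. These were 22.1% of the member counts in KO2 and 23.0% in KO1. Hist1h1c (chr13:23738808-23740367, plus strand), which encodes the variant H1.2, carried most of them, with 283 counts in KO2 and 243 in KO1, or 4.73 ± 0.638 CPM (SD, n = 2) and 3.03 CPM per kb. Hist1h1a, encoding H1.1, followed at 54 counts in KO2 and 50 in KO1 (1.26 CPM per kb), and Hist1h1b, encoding H1.5, at 17 counts in KO2 and 19 in KO1 (0.434 CPM per kb). Per exonic length Hist1h1c was thus above Hist1h1a in both libraries, and both were above Hist1h1b. Hist1h1d, encoding H1.3, had 24 counts in KO2 and 32 in KO1, but over an annotated exonic length of 7425 bases, so its level was 0.068 CPM per kb. Hist1h1e, encoding H1.4, had 6 counts in each library and 0.056 CPM per kb, and 25.7% of its exons lie under Hist1h2be and Gm11398 on the same strand. H1 was the only type with no member under 10 summed counts and the type with the least shared sequence, a median of 1.13% of its 50-base words.

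H2A members were mostly near the floor. All 18 together had 157 counts in KO2 and 143 in KO1, and 12 of the 18 had under 10 summed counts. Hist3h2a led with 81 counts in KO2 and 75 in KO1, 1.40 ± 0.115 CPM (SD, n = 2) and 0.653 CPM per kb. On the same strand, 32.99% of its exons lie under Trim17, and the sources used here do not give how reads of both genes were counted. Hist1h2ah had 10 counts in KO2 and 12 in KO1, and Hist1h2ae had 17 in KO2 and 21 in KO1. Their levels, 0.487 ± 0.049 and 0.484 ± 0.059 CPM per kb (SD, n = 2), did not differ beyond the spread between libraries. Hist2h2aa1 and Hist2h2ab had no count.

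H2B was the largest type by reads, with 854 counts in KO2 and 830 in KO1, or 48.3% of member counts in KO2 and 52.8% in KO1. Hist1h2bc (chr13:23684199-23692908, plus strand) had 612 counts in KO2 and 637 in KO1, 11.2 ± 0.008 CPM (SD, n = 2), the steadiest level among the detected members. At 9.69 CPM per kb it was above 79.4% of protein-coding genes. Its annotated transcript has 2 exons and ends without a stem-loop match after the stop codon. Sequence spliced out of that transcript was not searched. The other 17 H2B genes summed to 242 counts in KO2 and 193 in KO1. Hist3h2ba had 35 counts in KO2 and 18 in KO1 (0.780 CPM per kb), and Hist1h2bb had 15 in each library (0.530 CPM per kb). Hist2h2be, long for a histone gene at 2620 exonic bases, had 50 counts in KO2 and 56 in KO1 (0.363 CPM per kb). Hist1h2ba and Hist1h2bq had no count.

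H3 members summed to 127 counts in KO2 and 91 in KO1. Hist1h3g was highest per length, with 35 counts in each library and 1.19 CPM per kb. Hist1h3d had 27 counts in KO2 and 23 in KO1 (0.360 CPM per kb), and Hist1h3c had 14 in KO2 and 6 in KO1 (0.287 CPM per kb). Hist2h3b and Hist2h3c1 had no count. None of the 12 H3 genes was detected.

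H4 members summed to 238 counts in KO2 and 147 in KO1. Hist1h4i (chr13:22040636-22041362, minus strand) held most of them, with 143 counts in KO2 and 91 in KO1, 2.11 ± 0.718 CPM (SD, n = 2) and 2.90 CPM per kb. Per length it lay above Hist1h1c in KO2, at 3.60 against 3.32 CPM per kb, and below it in KO1, at 2.20 against 2.74 CPM per kb, so these neighbours did not differ beyond their spread. Hist1h4j had 16 counts in KO2 and 20 in KO1 (0.417 CPM per kb), and Hist1h4k had 11 in KO2 and 2 in KO1 (0.379 CPM per kb). At the low end, Hist4h4 had 3 counts in KO2 and 1 in KO1, and Hist1h4m had none.

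Genes known from male germ cells had few or no counts. Hist1h1t, the testis linker histone, had 7 counts in KO2 and 12 in KO1 (0.186 CPM per kb, above the median member), Hist1h2aa had 3 in KO2 and 0 in KO1, and Hist1h2ba, the testis H2B, had 0 in both. Of 8 male germ cell markers, Prm1, Prm2, Tnp1 and Acrv1, which mark spermatids, were at 0 in both libraries, while Sycp3, Stra8, Dazl and Ddx4 were detected at 44.6, 28.0, 26.9 and 19.7 CPM. All 8 ES cell markers were detected, with Dppa5a, Pou5f1 and Zfp42 highest per length at 2576, 434 and 382 CPM per kb and Esrrb and Klf4 lowest at 111 and 57.3 CPM per kb. Of 7 fibroblast markers only Thy1 was detected, at 23.9 CPM in KO2 and 20.4 in KO1 of 25.4 CPM in KO2 and 21.2 in KO1 for the whole list. Lum and Postn were at 0. Ago1 itself had 452 counts in KO2 and 1497 in KO1, 8.27 CPM in KO2 and 26.4 CPM in KO1; the sources used here do not give which part of the gene was removed, so this checks no label.

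Replication-independent histone genes, whose mRNAs are polyadenylated, together held far more reads than the clustered genes, though not gene by gene. The 67 clustered genes summed to 32.3 CPM in KO2 and 27.7 CPM in KO1, against 2050 CPM in KO2 and 1885 CPM in KO1 for a list of 12 replication-independent genes, of which 11 were detected. The sum of the 12 was thus 63.4 times as high in KO2 and 68.1 times in KO1. H2afz, encoding H2A.Z, had 264 CPM per kb, H3f3b, encoding H3.3, had 213, and H2afx had 159. H2afx also holds a stem-loop match, and is known to give both a stem-loop and a polyadenylated mRNA. At the low end were H1fx, with 358 counts in KO2 and 108 in KO1, and the oocyte gene H1foo, with 4 in KO2 and 2 in KO1. Hist1h2bc, the highest clustered gene, was at 9.69 CPM per kb, against a median of the 12 of 24.9 CPM per kb in KO2 and 24.3 in KO1. It lay above 5 of the 12, H2afy at 8.50, H2afj at 6.09, H2afy2 at 5.06, H1fx at 3.47 and H1foo at 0.045 CPM per kb.

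**Figure D2:**
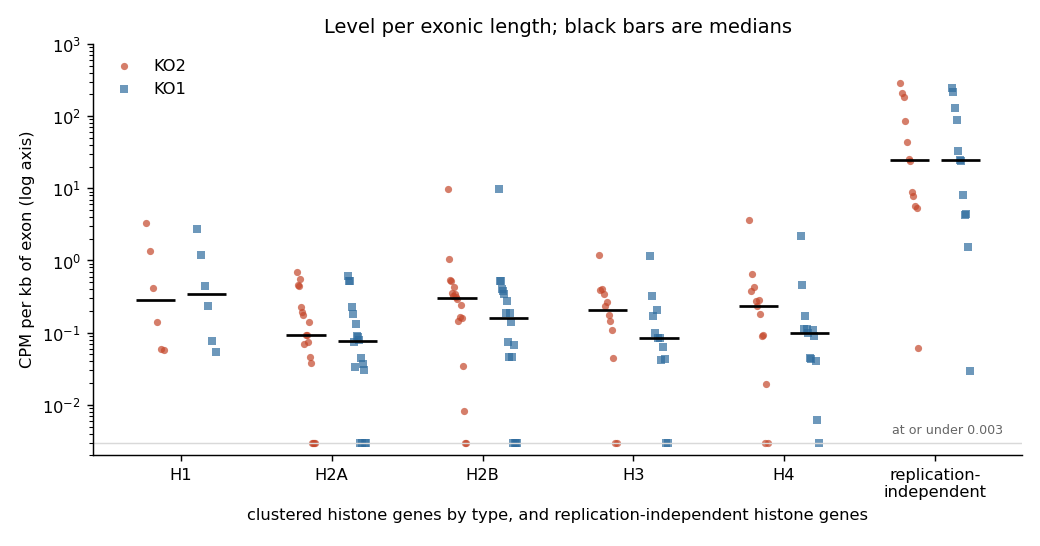
Level per exonic length (CPM per kb, log axis) of each clustered histone gene by type, and of 12 replication-independent histone genes at the right; circles are KO2, squares KO1, black bars medians, and values at or under 0.003 are drawn at that line. Medians of the clustered types lie at or under 0.341 CPM per kb in each library, and those of the replication-independent genes at 24.9 in KO2 and 24.3 in KO1.

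The machinery that makes and regulates stem-loop histone mRNA was expressed. Of 28 listed genes for histone mRNA end formation, transcription and decay, 26 were found in the table by symbol and 25 of those were detected. SLBP mRNA (Slbp) was at 124 ± 12.3 CPM, Npat, a coactivator of histone gene transcription, at 98.1 ± 17.8 CPM, and Casp8ap2, which encodes the histone locus body protein FLASH, at 139 ± 35.0 CPM (SD, n = 2 each). Lsm10 and Lsm11, the subunits particular to the U7 particle, were at 10.6 ± 1.79 and 12.9 ± 0.738 CPM. Per length the Sm genes Snrpf, Snrpg and Snrpe were highest, at 118, 98.9 and 79.4 CPM per kb. Lowest were Dis3l2, an exonuclease, at 2.00 CPM per kb and Mblac1, known from human cells as a nuclease of histone pre-mRNA, with 63 counts in KO2 and 35 in KO1, which was not detected. All 14 listed cleavage and polyadenylation genes were detected, from Pabpn1 at 5.15 and Fip1l1 at 7.63 CPM per kb to Nudt21 at 32.6, Cpsf1 at 32.7 and Papola, the poly(A) polymerase, at 62.6 CPM per kb. No gene of either list differed between the libraries by the rule described with the ratios. From the replication-independent list H1fx did, higher in KO2 at a log2 ratio of 1.78 (95% interval 1.47 to 2.11), which was 0.21 after correction for GC content.

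How far the annotation runs past the stem-loop was compared with the reads. In 25 members an annotated exon runs at least 50 bases past it, by a median of 454 and up to 4884 bases, and 13 of the 25 hold AATAAA, the usual polyadenylation signal, past the loop. Another 19 end within 50 bases of it, 15 could not be searched because they end at or near the stop codon, and 8 have no match. The 25 held 831 counts in KO2 and 677 in KO1, and the 8 held 759 in KO2 and 781 in KO1. The 19 held 98 in KO2 and 63 in KO1, and the 15 held 79 in KO2 and 52 in KO1. All 12 members with 50 or more summed counts were among the 25 (8 genes) or the 8 (4 genes). Medians per exonic length were closer, at 0.186 CPM per kb for the 25, 0.101 for the 19, 0.143 for the 15 and 0.265 for the 8. The median of the 25 over that of the 19 was 1.84, and it was 1.12 in KO2 alone and 2.27 in KO1 alone. All reads of each gene were also divided by the kb of its 50-base words that no other member shares. Over the 58 members with at least 50 such words, the medians were 0.352, 0.356, 0.342 and 0.340 CPM per kb in the same order. These 58 hold 15 of the 19 and 10 of the 15. On that scale the classes lay side by side. It is not a level on unshared sequence, because reads on shared sequence are in the counts.

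AATAAA in the last 50 annotated bases was found in 14 members, a grouping made after the values were seen. They held 528 counts in KO2 and 475 in KO1, 29.9% of member counts in KO2 and 30.2% in KO1. Their median level was 0.274 CPM per kb, against 0.134 for the other 53, and they ranged from no count (Hist1h2bq and Hist2h3c1) to Hist1h1c. Only 5 members have an annotated transcript with more than 1 exon, all of them H2B genes, namely Hist1h2bc, Hist1h2be, Hist1h2bp, Hist1h2br and Hist1h2bq. They held 673 counts in KO2 and 688 in KO1, nearly all from the first, and the last had none.

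Near-identical sequence limits what each gene's count means. Coding sequences of equal length had median identities of 96.7% within H2A, 97.4% within H2B, 97.2% within H3 and 93.9% within H4. Identical coding sequences were shared by 5 pairs, Hist1h2ao with Hist1h2ap, Hist1h2bq with Hist1h2br, Hist1h4m with Hist1h4n, Hist2h2aa1 with Hist2h2aa2 and Hist2h3c1 with Hist2h3c2. No gene of the first 3 pairs had more than 1 count in a library. In the last pair, Hist2h3c2 had 13 counts in KO2 and 12 in KO1, and Hist2h3c1 had none. Of all members, 34 shared at least 50% of their 50-base words with transcripts of other genes, and they held 163 counts in KO2 and 110 in KO1, a median of 5 summed counts per gene. The other 33 held 1604 in KO2 and 1463 in KO1, with a median of 30. Median exonic length was 468 bases for the 34 and 774 bases for the 33. Their median levels were 0.091 and 0.287 CPM per kb. Across the 67 genes the Spearman correlation of the shared share with the summed count was -0.68. These genes share libraries and base composition, and the counts were not scaled for length. The sources used here do not give whether reads matching several genes were dropped, so a low count of a gene with shared sequence and low expression of it cannot be told apart.

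**Figure D3:**
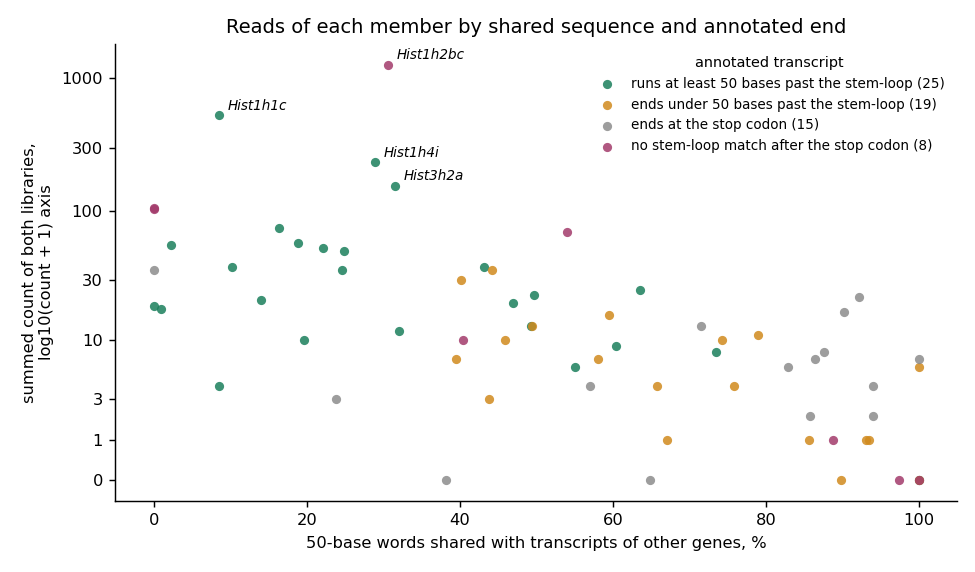
Summed count of both libraries for each member (log10 of count + 1) against the percentage of its 50-base words found in transcripts of other genes (matched on either strand). Colours give where its annotated transcript ends. The 4 detected genes share under 32% of their words, and of the 34 genes sharing at least 50% only Hist1h3g reaches 50 counts.

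Between the libraries, the summed level of the clustered genes differed by a ratio of 1.17, KO2 over KO1 (95% interval 1.09 to 1.25). A gene was counted as differing where its summed count was at least 50 and the exact conditional binomial 95% interval of its ratio, KO2 over KO1, lay wholly beyond 2-fold. This compares 2 libraries, not conditions. None of the 12 members with enough counts was higher in KO2 by this rule, against 0.98% of 15619 genes, and none was lower, against 0.0768%. Their median log2 ratio was 0.21, beside 0.0096 for all such genes, and 9 of the 12 were positive. Of the 60 members with any count, the CPM was higher in KO2 for 43, or 71.7%. The 43 include Hist1h1e, Hist1h2af, Hist1h2ak, Hist1h2an, Hist1h2bb, Hist1h3g, Hist1h3h and Hist1h4b. These had equal counts in both libraries and were higher only through the smaller size of KO2. The CPM was higher in KO2 for 53.9% of all protein-coding genes with a count, and for 89.9% of the 5892 with a GC content within 5 percentage points of the members' median. These 5892 were not matched to the members for depth, and 24 of the 60 members had 1 to 9 summed counts.

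GC content moved with the ratio across the whole table, where 15603 genes gave a Spearman correlation of 0.811 (genes are not independent replicates). All members, including those with few or no counts, had a median GC content of 57.9%, against 48.7% for protein-coding genes. The 12 members with enough counts for a ratio ran from 39.8% (Hist1h1d) to 61.7% (Hist1h3g). Of the 12, Hist1h1d, Hist1h2bh, Hist2h2be, Hist1h2be, Hist3h2a and Hist1h2bc lay below 48.7%. Hist1h3d, Hist1h4i, Hist1h1a, Hist1h1c, Hist3h2ba and Hist1h3g lay above it. After a loess correction for GC content the median log2 ratio was 0.23 for the 12 members and -0.0079 for all genes. The highest uncorrected ratios were those of Hist3h2ba, at a log2 of 1.00 (95% interval 0.16 to 1.92), Hist1h4i at 0.71 (0.32 to 1.10) and Hist1h2bh at 0.35 (-0.44 to 1.16), the last with 32 counts in KO2 and 26 in KO1. The lowest were Hist1h1d at -0.35 (-1.19 to 0.45), Hist2h2be at -0.11 and Hist1h2bc at -0.0013 (-0.16 to 0.16). With the correction Hist3h2ba was at 0.44 (-0.40 to 1.37), Hist1h4i at 0.50 (0.12 to 0.90) and Hist1h2bc at 0.17 (0.0069 to 0.33). Hist1h3g, at 61.7% GC and with equal counts in both libraries, was at -0.84 (-1.56 to -0.13). Of the 12 corrected intervals, 2 lay above 0 and 1 below. Whether GC content accounts for the members' ratios was not tested.

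**Figure D4:**
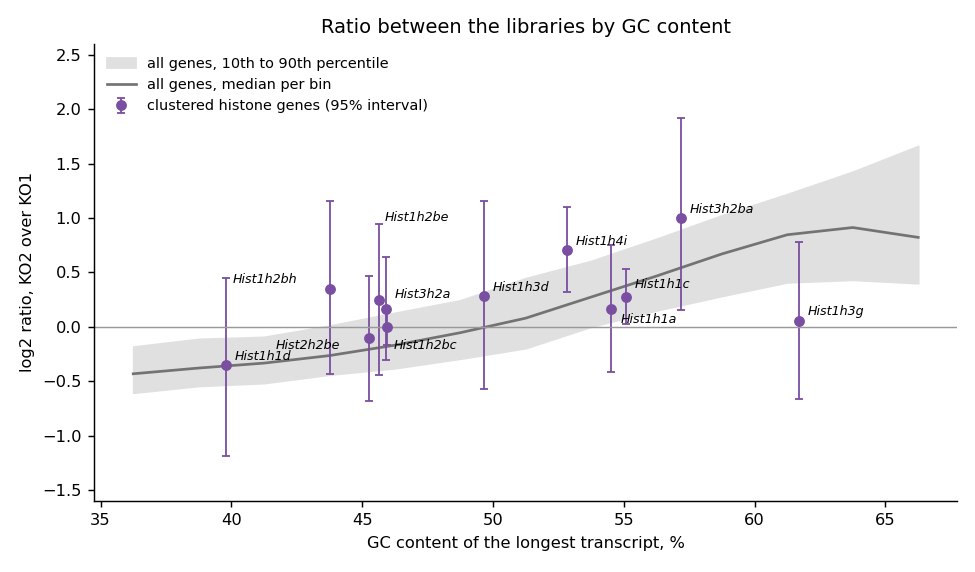
Log2 ratio of KO2 over KO1 against GC content for the 12 members with at least 50 summed counts (points with 95% counting intervals), over the median and the 10th to 90th percentile band of all genes with such counts in GC bins. Hist1h4i (0.71) and Hist1h3g (0.06) stand on opposite sides of the trend, and all 12 intervals reach inside 2-fold.

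By type, the ratio of summed counts was 1.12 for H1 (95% interval 0.971 to 1.30), 1.14 for H2A (0.904 to 1.44), 1.07 for H2B (0.971 to 1.18), 1.45 for H3 (1.10 to 1.92) and 1.68 for H4 (1.36 to 2.08). The intervals of H3 and H4 lay above 1 and those of the other types included it. All 10 H3 genes with a count had the higher CPM in KO2, and so did 9 of 12 H4 genes. Among these, Hist1h3g (35 counts in each library), Hist1h3h (1 in each) and Hist1h4b (2 in each) were higher only through the smaller size of KO2. Of all protein-coding genes with a count and a GC content within 5 percentage points of the members' median, not matched for depth, 89.9% were higher in KO2. The log2 ratio of H3 was 0.54 (0.14 to 0.94), against a table-wide trend of 0.56 at the GC content of its counted genes. That of H4 was 0.75 (0.45 to 1.06), against a trend of 0.22. That of H2B was 0.097 (-0.042 to 0.24), against a trend of -0.097, so its interval also lay above the trend. The intervals of H1 and H2A included their trends of 0.31 and 0.29. Without Hist1h4i the H4 genes had 95 counts in KO2 and 56 in KO1, a ratio of 1.76 (1.25 to 2.5). Hist1h4d, chosen here after its values were seen, had 27 counts in KO2 and 11 in KO1. A table-wide count of types or lists that depart from the trend as far as H4 or H2B was not made.

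**Figure D5:**
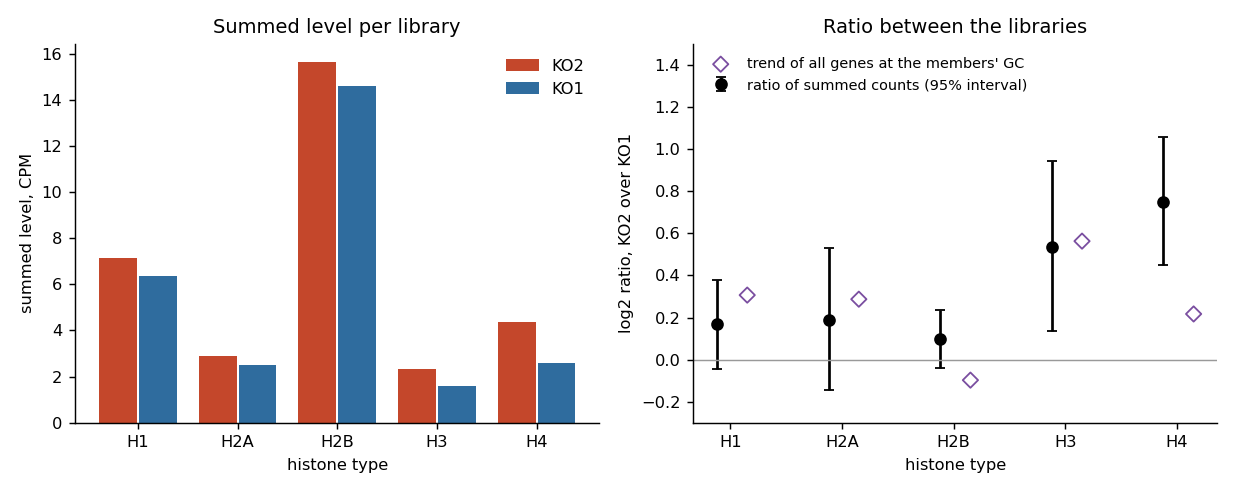
Left, summed level in CPM of each histone type in KO2 and KO1; right, log2 ratio of KO2 over KO1 for the summed counts (points, 95% counting intervals) beside the trend of all genes at the members' GC content (diamonds). H2B has the highest sum, at 15.6 CPM in KO2 and 14.6 CPM in KO1. The H4 interval lies above its diamond at 0.22, and the H2B interval above its diamond at -0.097.

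Promoters of the members were compared by short motifs that the rule did not use. RefSeq promoters (GRCm38.p6), taken from 250 bases before the start, were matched for 62 of the 67, and motifs were searched on both strands. TATAAA, the TATA box, was found in 29 of the 62 (46.8%), against 14.3% of 27025 genes. A gene counted if any of its promoters held the motif. CCAAT was found in 51 (82.3%), against 37.5%, and was present in every matched H1, H2A and H2B promoter but in only 3 of 12 for H4. The octamer ATTTGCAT, known to be bound by the POU factor Oct-1, was found in 14 (22.6%), against 1.81%. These were 7 of 18 H2A and 7 of 16 H2B promoters, and none of H1, H3 or H4. Many H2A and H2B genes are divergent pairs that share 1 promoter region, so these counts are not independent, and a match is a description of letters, not of binding.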

How the data were processed

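The deposited values were raw read counts for each gene in both libraries. Per the submitters' processing notes the reads were placed on GRCm38, and the labels describe a TruSeq kit and a reverse-stranded protocol. For the aligner, the counter and how it treated strands and reads matching several genes, no entry was found: not given in the sources used here. For levels, counts were divided by library sizes times trimmed mean of M values (TMM) factors of 1.00 for KO2 and 0.996 for KO1 from edgeR 4.0.16 in R 4.3.3. Symbols, exonic lengths, GC content of the longest transcript and transcript sequences came from GENCODE M21, and promoters from RefSeq. A level of a gene is the mean ± SD over 2 libraries. With 1 group there was no test between conditions and no p-value. Ratios used a prior count of 0.5, and the GC correction a loess fit with a span of 0.3 over all genes with at least 50 summed counts. The trend given for a type is that fit averaged over its members by count.

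The members and lists were chosen with earlier results of these data known. Genes named are, in each type, the 3 highest and 2 lowest by CPM per kb, the 5 with most counts, the 3 highest and 3 lowest ratios, testis members, Ago1, and of the gene lists the 3 highest and 2 lowest with Slbp, Npat, Casp8ap2, Lsm10 and Lsm11; others serve to account for members and sequences. Of the processing list, Zcchc6 and Zcchc11 were not matched by symbol. The ratio rule and the stem-loop search were tested on simulated data. Size factors of DESeq2 1.42.0 served as an alternative. They were 1 for both libraries, so this alternative took the libraries as equal in size. Other steps ran in python 3.11.15 with pandas 2.3.3, numpy 2.4.6, statsmodels 0.14.6 (loess), scipy 1.17.1 (intervals) and matplotlib 3.10.9.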

Additional observations from a re-analysis of the deposited data

How the results depend on the processing

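No paired analysis was possible because there is a single group, with nothing to pair. The count of 4 detected members was 8 at a CPM of at least 0.5 and 1 at a CPM of at least 5, and 4 to 4 in each library alone. The member share of all counts, 0.0030% on average, ran from 0.00276% to 0.00325% with 1 library left out. The H1 share of member counts, 22.6%, was 17.2% for counts per kb and ran from 22.1% to 23.0% with 1 library left out; it was 36.3% without Hist1h2bc, an alternative chosen after seeing the data. No member differed between the libraries under fold thresholds of 1.5 and 3, a summed count of at least 10, no count filter, no TMM, DESeq2 size factors or the GC correction. The median log2 ratio of 0.21 lay between 0.15 and 0.28 under the alternatives tried. The 44 stem-loop matches were 44 with 1 unformed pair allowed and in a window of 150 bases. The 25 members annotated past the stem-loop were 41 at 20 bases or more and 18 at 200 or more. The ratio of medians by annotated end, 1.84, was 3.86 without length scaling. It was 0.988 with all reads of a gene divided by its kb of unshared sequence, and ran from 1.12 to 2.27 with 1 library left out. It was 2.16 over members with no exon under another gene on the same strand, also chosen after seeing the data. Depth limits members under 50 summed counts, whose single-gene ratios have wide intervals.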
